A study of Mus musculus with 12 samples.

Results

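The GABA synapse genes are 25 mouse genes chosen by name for their part in inhibitory signalling: receptor subunits, enzymes, transporters, a scaffold, an adhesion protein and genes of interneurons. They are 25 of the 55573 genes in the count table, and all 25 passed the filter on low counts that left 14008 genes to test. RNA with poly-A tails was read by sequencing in 12 C57BL/6J mice aged 4.5 months, with a library made from the entire right hippocampus of each animal. The transgenic animals, here APP/PS1 (labelled genotype APPSwe/Ps1dE9), were 4 females and 4 males, and the wild-type animals (WT) were 2 females and 2 males. A prion promoter element drives the transgenes. They encode a human PS1 with an exon removed and a mutant APP that joins mouse and human sequence. Such changes occur in familial Alzheimer's disease. Each library held between 36714316 and 50643565 counts, with a median of 39369461. The lowest count of any of the 25 genes in any animal was 667, for Lhx6, so none of them was limited by a count near 0.

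GABA is the main inhibitory transmitter of the hippocampus and is made from glutamate by the decarboxylases Gad1 and Gad2. Slc32a1 loads it into synaptic vesicles of interneurons, a minority of the neurons of this tissue. GABA-A receptors are chloride channels built from alpha, beta and gamma or delta subunits, and GABA-B receptors are heterodimers of Gabbr1 and Gabbr2 that act through G proteins. The exporter Slc12a5 and the importer Slc12a2 set the chloride gradient on which GABA-A currents depend.

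The tissue label was checked against lists of cell type markers, each summed in normalized CPM, that is, read counts scaled to a common library size. Pan-neuronal markers (most abundant Snap25) summed to 5480 to 6240 CPM over the 12 animals, and excitatory neuron markers (Camk2a) to 5580 to 6960 CPM. Dentate granule cell markers (Prox1) summed to 273 to 376 CPM, and markers of CA1 and CA3 pyramidal cells (Mpped1) to 663 to 855 CPM, so the principal cells of the hippocampus were represented in each library. Sums for neighbouring regions were lower, 117 to 136 CPM for the thalamus list (Ntng1) and 71.8 to 142 CPM for the striatum list (Ppp1r1b), whose gene Adora2a did not pass the filter. Astrocyte markers (Aldoc) summed to 1820 to 2070 CPM, oligodendrocyte markers (Mbp) to 4090 to 5830 CPM and their precursors' markers (Pdgfra) to 142 to 170 CPM. Endothelial and mural markers (Flt1) summed to 140 to 201 CPM and ependymal markers (Foxj1) to 18.9 to 55.7 CPM. Thy1, a neuronal surface protein gene chosen after its values were seen and so no check of the genotype labels, was at 2170 to 3310 CPM in the APP/PS1 animals and at 726 to 747 CPM in the WT animals. Whether the transgene itself carries Thy1 sequence was not tested.

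The libraries of female 1 and male 2 among the APP/PS1 animals, and of female 2 among the WT animals, stood apart from the other 9. Their choroid plexus markers, a list of 12 genes led by the transthyretin gene Ttr, summed to 4040, 7190 and 4250 CPM, against 34 to 52.1 CPM elsewhere. Ttr alone was at 3530, 6360 and 3650 CPM in them, and at 2.69 to 18.3 CPM in the others. The choroid plexus lines the ventricle beside the hippocampus and secretes cerebrospinal fluid. Other lists set the same libraries apart: oligodendrocyte markers summed to 5830, 5690 and 5590 CPM in them (4090 to 5330 CPM elsewhere), striatum markers to 107, 142 and 125 CPM (71.8 to 95.2 CPM elsewhere), pyramidal cell markers to 663, 684 and 713 CPM (755 to 855 CPM elsewhere) and pan-neuronal markers to 5740, 5480 and 5650 CPM (5770 to 6240 CPM elsewhere). The part of these lists in the GABA gene values was not tested. These 3 libraries also had the highest values on the first of the 2 unwanted-variation factors in the model, at 0.463, 0.56 and 0.458, against -0.244 to -0.0966 in the rest. The fit of the other 9 libraries had no such factor, so it differs from the main model in 2 choices. It is called the 9-library fit below. The fit of all 12 libraries without factors, given for comparison, changes the factors alone.

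Levels were compared between genes as CPM per kilobase of exon, averaged over the 12 animals. Gabbr1, the GABA-B subunit that binds the transmitter, stood highest at 91.4 CPM per kilobase (range over animals 81.0 to 98.2), at the 97.2 percentile of the genes tested. The chloride exporter Slc12a5 followed at 67.7 (60.1 to 76.0) and Gabra5, an alpha subunit abundant in the hippocampus and much of it outside synapses, at 62.3 (55.1 to 68.0) CPM per kilobase. The ranges of Slc12a5 and Gabra5 overlapped, while that of Gabbr1 lay above both. Among the alpha subunits, Gabra3 (24.9), Gabra4 (19.0) and Gabra2 (16.4) were all lower than Gabra5 on this scale. Of the other subunits, Gabrb2 was at 29.5 and Gabrb1 at 19.5 CPM per kilobase, whereas Gabrd, the delta subunit of receptors outside synapses, was at 7.58, Gabrg1 at 3.90 and Gabrg3 at 2.13. Gabrg3 had the lowest level of the 25 genes, at the 23.8 percentile.

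The remaining roles covered the same span. Gabbr2, which couples the GABA-B receptor to G proteins, was at 44.6 CPM per kilobase, about as high as Gad1 at 47.0. Gad2 was at 33.2, the vesicular transporter Slc32a1 at 28.7, the GABA transporter Slc6a11 of astrocytes at 25.7 and the GABA-degrading transaminase Abat at 36.1 CPM per kilobase. Nlgn2, the neuroligin of inhibitory synapses, was at 40.3, and Gphn, which encodes the scaffold protein gephyrin, at 20.7 CPM per kilobase. The chloride importer Slc12a2 was at 9.26 CPM per kilobase and had a wide range, 6.52 to 13.9. Interneuron genes ranged from Pvalb, the calcium-binding parvalbumin, at 34.6 CPM per kilobase down to the receptor Erbb4 at 7.41, the transcription factors Lhx6 at 4.15 and Dlx1 at 3.91, and the secreted glycoprotein gene Reln at 3.75. The plot of levels orders all 25 genes.

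**Figure D1:**
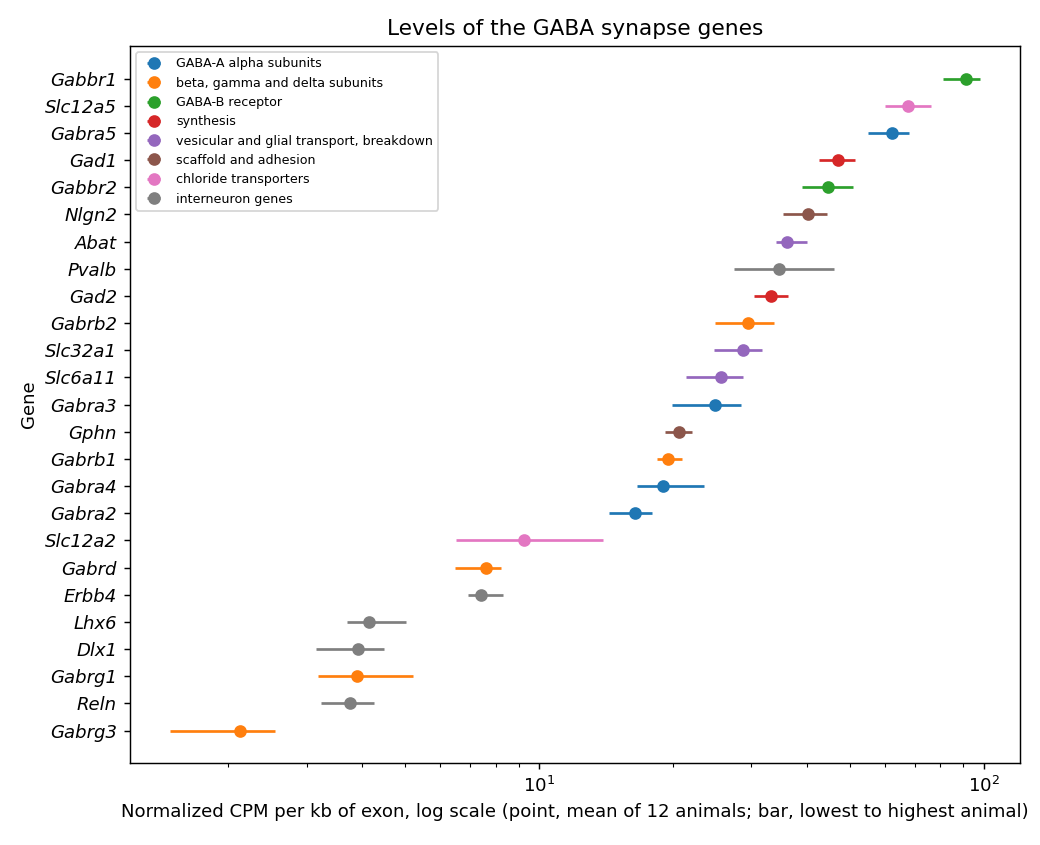
Level of each GABA synapse gene in normalized CPM per kilobase of exon on a log scale; points are means of the 12 animals, bars run from the lowest to the highest animal and colours give the role. Gabbr1 was highest at 91.4 and Gabrg3 lowest at 2.13, and the bar of Slc12a2 is long, from 6.52 to 13.9.

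Animals of a group differed little in most of these genes. The within-group coefficient of variation had a median of 7.77% over the 25 genes, against 9.29% over all 14008 genes tested and 7.3% over the 7861 tested genes in the same range of mean levels. Abat varied least, by 3.78%, followed by Gad1 (4.33%) and Gabrb1 (4.37%). Slc12a2 varied most, by 29.1%, and Gabrg3 (15.3%), Pvalb (14.7%) and Gabrg1 (13.4%) came next. The spread therefore differed widely within the list, and it was narrow for Abat and Gad1 and wide for Slc12a2.

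Several members lie close together in the genome. Gabrg1, Gabra2, Gabra4 and Gabrb1 form a cluster on mouse chromosome 5 (GRCm38, from 70751047 to 72149037), and Gabrg3 and Gabra5 lie side by side on chromosome 7 (56716465 to 57510059). Exons of Gabra4 and Gabrb1 overlap on opposite strands. Exons of Slc32a1, Reln, Dlx1, Gabra5 and Gphn overlap an antisense transcript in the annotation, and those of Lhx6 a transcript on its own strand. The libraries kept strand information (they are described as directional), but the strand option used in counting is not given in the sources used here, so a share of these genes' counts could belong to the overlapping transcript. In the genotype comparison averaged over the sexes, the chromosome 5 genes had log2 fold changes of -0.052 (Gabrg1), -0.029 (Gabra2), 0.021 (Gabra4) and -0.013 (Gabrb1), each within its standard error (SE) of 0.0424 to 0.0868. The chromosome 7 pair stood at -0.14 (Gabrg3) and -0.071 (Gabra5), neither past the test.

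The comparison of APP/PS1 with WT, with the female and male differences averaged, asked whether genes of inhibitory synapses differ in the young transgenic hippocampus. None of the 25 genes was called. The edgeR quasi-likelihood test called 0 of 25 at a false discovery rate (FDR) under 0.1, where it called 270 of all 14008 genes (1.93%), and 0 members were called by edgeR's likelihood ratio test or by DESeq2. The smallest adjusted p among the members was 0.301, and with DESeq2 it was 0.104. At an unadjusted p under 0.05 there were 2 members, Gad1 and Abat, both lower in APP/PS1, against 9.68% of all genes in either direction and 3.34% in the lower direction. That count was 2 in all 12 libraries without factors (996 of 14008 genes). It was 5 with DESeq2 (1345 of 14008) and 7 without a filter (2224 of 33621). The count fell in the 9-library fit and without WT male 2 or WT female 2. It rose without WT female 1, and was highest of all settings without WT male 1, so it depended on single WT animals. Each of these last fits has 1 WT animal in a sex. The number of all genes called also moved, to 398 by the likelihood ratio test, 400 by DESeq2, 173 without factors, 66 in the 9-library fit, 128 without WT female 1, 171 without WT female 2 and 175 without APP/PS1 male 2. In whole tissue, fewer cells of a type and less RNA per cell cannot be told apart, which holds for each difference given here.

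Most estimates lay slightly below 0. Of the 25 genes, 19 (76%) had a lower fitted level in APP/PS1, with a median log2 fold change of -0.067, while 45.2% of all genes tested were lower, with a median of 0.010. In the 9-library fit 15 of 25 were lower, with a median of -0.040, and in all 12 libraries without factors 18, with a median of -0.045. By role, both synthesis genes, all 3 genes of vesicular and glial transport and breakdown, both GABA-B subunits, Gphn and Nlgn2 were lower, as were 3 of 4 alpha subunits, 3 of 5 beta, gamma and delta subunits, 3 of 5 interneuron genes and Slc12a5. The 6 with higher estimates were Gabra4, Gabrb2, Gabrd, Slc12a2, Pvalb and Erbb4. Estimates of Gabra2, Gabra3, Gabra4, Gabrb1, Gabrg1, Gphn, Slc12a2, Pvalb and Erbb4 changed sign in at least 1 alternative setting.

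The intervals limit how large a difference these data allow. In the averaged comparison 23 of the 25 intervals at 95% confidence lay wholly within 20% of the WT level in either direction. The exceptions were Gabrg3, whose interval reached down to -20.3%, and Pvalb, whose interval reached up to 26.3%. In females 18 and in males 19 of the 25 intervals lay within 20%. The widest reach was that of Pvalb, up to 39% in females and 33% in males, and the lowest bounds were -27.3% for Dlx1 in females and -27% for Gabrg1 in males. The plot of estimates shows the intervals of each gene for the averaged, female and male comparisons.

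**Figure D2:**
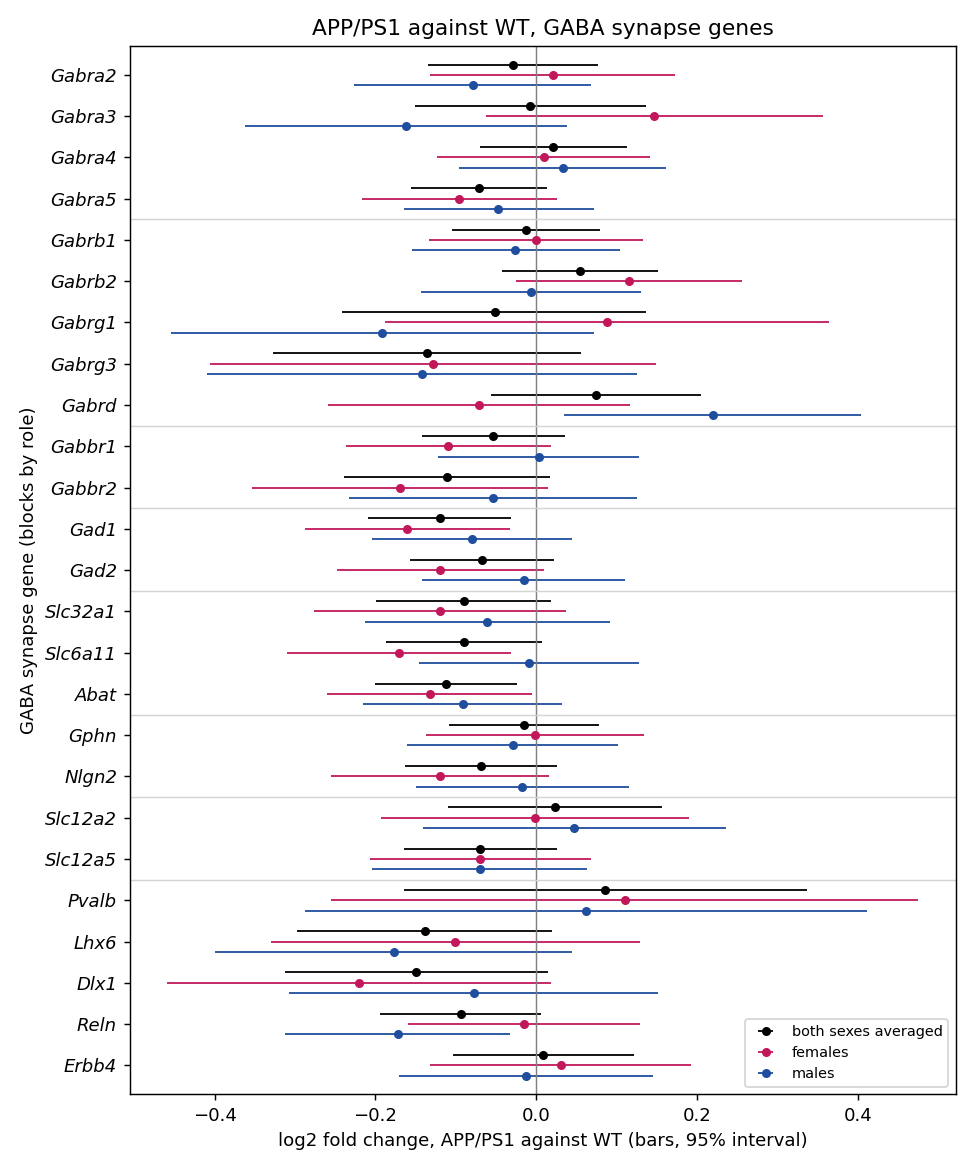
Log2 fold change of APP/PS1 against WT for the 25 GABA synapse genes in blocks by role; points are estimates of the model on 12 libraries and bars are 95% intervals, for both sexes averaged, females and males. In the averaged comparison 19 points lie left of 0, and the bars of Gad1 and Abat do not cross it; neither gene passed the FDR threshold.

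In females alone, 0 of 25 members were called by the edgeR quasi-likelihood test (101 of all genes, 0.721%), and 0 by the likelihood ratio test (278 of all genes) or DESeq2 (289). The count at an unadjusted p under 0.05 was 3 (Gad1, Slc6a11 and Abat), all lower in APP/PS1. For all genes the share was 9.72%, and 3.56% in the lower direction. The count was 7 with DESeq2 (1324 of 14008 genes). It was 5 without APP/PS1 female 3 (1328 of 13978) and 1 without APP/PS1 female 2 (977 of 13974). The smallest adjusted p of a member was 0.386. Of the members, 17 (68%) were lower, with a median of -0.071, against 45.7% of all genes and a median of 0.013. The values of the 4 APP/PS1 females all lay below those of both WT females for Gad1, Slc6a11 and Abat, and all above for Gabra3 and Gabrb2. Among all genes tested 6.61% lay wholly below and 12.5% wholly above, so 3 and 2 of 25 are near the background. In the 9-library fit the members under 0.05 were Gabra3, which was higher, and Slc6a11. Of all genes, 31 were called in females in that fit, 67 in all 12 libraries without factors, 21 without WT female 1, 67 without APP/PS1 female 2 and 152 without APP/PS1 male 1.

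In males, 0 of 25 members were called by the edgeR quasi-likelihood test (25 of all genes, 0.178%), and 0 by the likelihood ratio test (143 of all genes) or DESeq2 (144). Of the 2 members with an unadjusted p under 0.05, Reln was lower and Gabrd higher in APP/PS1; for all genes the share was 5.67%, and 1.91% in the lower direction. Of the members, 20 (80%) were lower, with a median of -0.047, against 47.7% of all genes and a median of 0.0055. Gabrd was the only member whose 4 APP/PS1 males all lay above both WT males, as 6.5% of all genes did, and 0 members lay wholly below, as 4.34% of all genes did. Over both sexes together, 0 members had every APP/PS1 animal below every WT animal (0.136% of all genes) and 0 had every one above (1.31%). In the 9-library fit 0 members were under 0.05, and in all 12 libraries without factors 1, Reln. Without APP/PS1 male 3 there were 3 (Gabra3, Gabrd and Reln; 903 of all 14002 genes). The count also rose without WT male 1, a fit that leaves 1 WT male. The number of all genes called in males was 12 in the 9-library fit, 21 in all 12 without factors, 4 without WT male 2 and 75 without WT male 1, and leaving out male 2 or female 3 of the APP/PS1 animals gave 9 and 40. Female and male comparisons share no animals but share the fitted spread and the unwanted-variation factors.

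The interaction, the female difference minus the male difference, tested whether the genotype difference depends on sex. The edgeR quasi-likelihood test called 0 members and 0 of all genes (0%). By the likelihood ratio test 12 and by DESeq2 9 of all genes were called, 0 of them members. The 2 members with an unadjusted p under 0.05, against 3.88% of all genes, were Gabrd and Gabra3, and the smallest adjusted p of a member was 0.997. That count was 1 in all 12 libraries without factors (Gabra3, with 339 of 14008 genes). It was 0 with the choroid plexus score (330 of 14008) and with the replicate block (469 of 14008). Which members were under 0.05 also changed without WT male 2 or WT female 1. Females against males within a genotype gave 0 members called by all of these tests, where the quasi-likelihood test called 7 of all genes in WT (0.05%) and 12 in APP/PS1 (0.0857%). The likelihood ratio test called 41 and 26 of all genes and DESeq2 34 and 28, and leaving out each animal in turn gave 5 (WT male 2) to 17 (WT female 2) in WT and 7 (APP/PS1 female 4) to 13 (APP/PS1 male 4) in APP/PS1. Gabrb2 was the only member with an unadjusted p under 0.05 in WT, with a log2 fold change of -0.18 (SE 0.0769) and an adjusted p of 0.971, and in APP/PS1 there were 0. In APP/PS1 there were 4 without APP/PS1 male 2 (Gabrg3, Gad1, Slc12a2 and Slc6a11; 689 of all 13893 genes). Without APP/PS1 female 3 there were 2 (Dlx1 and Slc12a2; 816 of 13978). Intervals of the interaction were wide: 12 of 25 lay within 20%, and bounds reached down to -32% (Gabrd) and up to 58.5% (Gabrg1). The map of members by animal shows the values behind these comparisons.

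**Figure D3:**
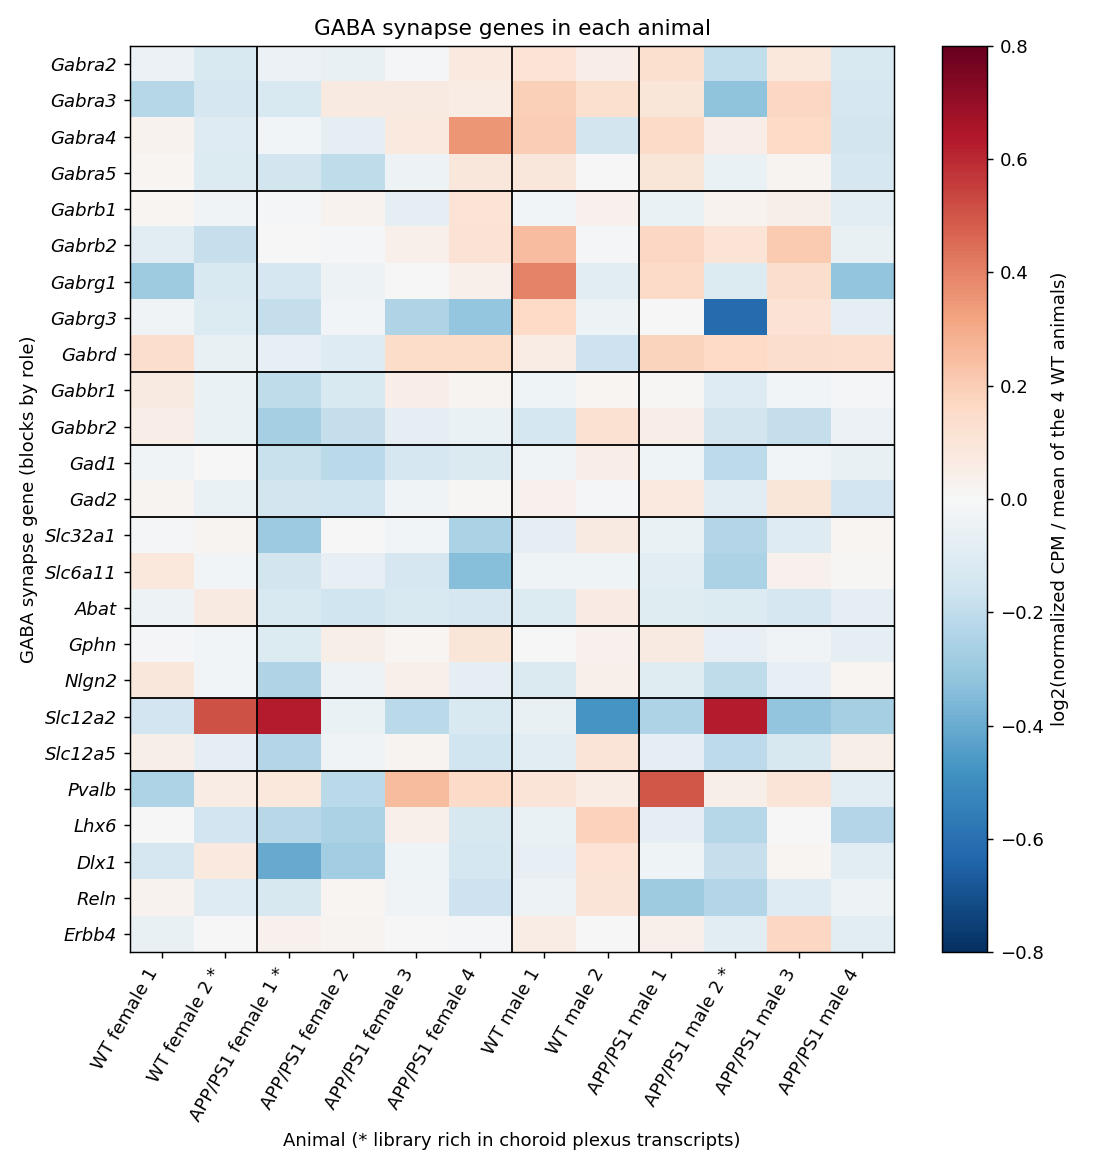
Normalized CPM of each GABA synapse gene in each animal, as log2 of the ratio to the mean of the 4 WT animals; columns are the 12 animals in their groups and asterisks mark the 3 libraries rich in choroid plexus transcripts. Slc12a2 is high in the 3 marked libraries, at 152, 152 and 140 CPM, and most other cells are pale.

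Gad1 (ENSMUSG00000070880; GRCm38 chromosome 2, 70553072 to 70602014, plus strand) encodes the decarboxylase that makes most GABA in the brain. Its levels were 335, 326, 345 and 349 CPM in the 4 APP/PS1 females, and 372 and 378 CPM in the WT females. In the APP/PS1 males it was at 370, 328, 373 and 363 CPM, and in the WT males at 372 and 393 CPM. Of the 8 APP/PS1 animals, 7 lay below every WT animal, and APP/PS1 male 3 lay within the WT range. Group means were 339 ± 10.4 (SD, n = 4) against 375 ± 3.87 (SD, n = 2) CPM in females and 358 ± 20.7 (SD, n = 4) against 383 ± 14.8 (SD, n = 2) CPM in males. The averaged log2 fold change was -0.12 (SE 0.0411), a difference of -7.99% with an edgeR unadjusted p of 0.0118 and an adjusted p of 0.301, so Gad1 did not pass the test. Its estimate was -0.16 (SE 0.0593; edgeR adjusted p = 0.386) in females and -0.080 (SE 0.0576; adjusted p = 0.998) in males, and the interaction was -0.080 (SE 0.0835; adjusted p = 0.997). The averaged estimate stayed below 0 in all 22 alternative settings, from -0.15 to -0.093, and the male estimate was -0.036 without WT male 2. Its unadjusted edgeR p was 0.105 in the 9-library fit, 0.0238 in all 12 libraries without factors, 0.0526 without WT female 2 and 0.0529 without WT male 2.

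Gad2 (ENSMUSG00000026787; chromosome 2, 22622205 to 22693874, plus strand) encodes the decarboxylase enriched at nerve terminals. It was at 180, 178, 195 and 200 CPM in APP/PS1 females and at 202 and 192 CPM in WT females. In males it was at 210, 187, 213 and 179 CPM in APP/PS1 and at 204 and 198 CPM in WT. The groups overlapped in both sexes, and APP/PS1 males 1 and 3 lay above both WT males. The averaged log2 fold change was -0.067 (SE 0.0415), with an edgeR adjusted p of 0.649, and it was -0.035 without APP/PS1 male 4. Its estimates were -0.12 in females and -0.016 in males (0.037 without APP/PS1 male 4), neither past the test.

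The ratio of Gad2 to Gad1 counts within a library does not depend on scaling. It ran from 0.495 to 0.574 in the 8 APP/PS1 animals, with a median of 0.567, and was 0.542, 0.508, 0.549 and 0.504 in the WT animals. APP/PS1 male 4 had the lowest ratio of all 12 animals, and the other APP/PS1 males were at 0.569 to 0.571. The mean log2 ratio was higher in APP/PS1 by 0.074, with p = 0.121 (exact permutation test over 495 labelings, two-sided) and an adjusted p of 0.363 over the 3 ratios tested. Leaving out each animal in turn gave 0.054 (WT male 2; unadjusted exact permutation p = 0.255) to 0.097 (APP/PS1 male 4, the animal with the lowest ratio; unadjusted exact permutation p = 0.0152). Without the 3 choroid plexus-rich libraries the difference was 0.057 with an unadjusted exact permutation p of 0.369, and with medians in place of means it was 0.11 with an unadjusted exact permutation p of 0.0485. The smallest p that these 495 labelings, which ignore sex, allow is 0.00202.

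The windows around the starts of both decarboxylase genes are shown because this pair shares a function but not the counts of the motifs searched, and neither gene was called. Both come from RefSeq promoters on build GRCm38.p6, 250 bases before to 50 bases after a start. Gad1 is at chr2:70561879-70562178 and Gad2 at chr2:22622077-22622376, both on the plus strand and printed from 5′ to 3′. The Gad1 window lies inside the annotated span of the gene, at a start that RefSeq gives. Capitals in Gad1 mark matches to the letters of the TATA box (TATAAA) and of the GC box (GGGCGG), both read on the other strand. The search took no account of distance from the start. In Gad2 no motif searched was found and no letter is in capitals.
Gad1: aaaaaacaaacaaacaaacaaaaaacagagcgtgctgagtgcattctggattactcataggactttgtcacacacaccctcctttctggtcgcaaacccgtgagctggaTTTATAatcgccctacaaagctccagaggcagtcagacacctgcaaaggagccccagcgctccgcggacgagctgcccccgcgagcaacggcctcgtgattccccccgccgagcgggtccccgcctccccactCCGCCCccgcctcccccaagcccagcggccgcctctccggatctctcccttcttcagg
Gad2: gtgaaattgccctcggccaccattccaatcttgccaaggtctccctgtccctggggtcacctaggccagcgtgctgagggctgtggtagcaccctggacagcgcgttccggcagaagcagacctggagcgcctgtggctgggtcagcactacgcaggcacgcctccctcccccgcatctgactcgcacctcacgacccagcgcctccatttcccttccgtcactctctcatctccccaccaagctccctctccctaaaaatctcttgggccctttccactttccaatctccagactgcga

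Of the 25 genes, 22 matched the promoter table, with 30 windows, and Gabrd, Abat and Slc12a2 did not. Their GC content ran from 38.3% in Gabrg1 to 80.7% in Reln, with a median of 61.2%, against a median of 52.7% over all 32851 windows. On either strand, GGGCGG was found in windows of 14 members and in 35.7% of all windows. TATAAA was found for 4 members, Gabra3, Gabrb2, Gad1 and Lhx6, and in 13.6% of all windows. TAATTA, the core that Dlx homeodomain proteins bind, was found for 1 member, Gabrg1, and in 5.29% of all windows. The cyclic AMP response element TGACGTCA was found for 0 members and in 1.79% of all windows. Genes with several windows had more chances to match, and these matches describe letters, not bound sites.

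Abat (ENSMUSG00000057880; chromosome 16, 8513429 to 8621568, plus strand) encodes the mitochondrial transaminase that breaks GABA down. It was at 272, 265, 272 and 269 CPM in the APP/PS1 females and at 288 and 311 CPM in the WT females. In males it was at 276, 274, 269 and 280 CPM in APP/PS1 and at 274 and 310 CPM in WT. The APP/PS1 values spanned 265 to 280 CPM, and WT male 1 lay among them while the other 3 WT animals lay above all 8. Its averaged log2 fold change was -0.11 (SE 0.0408), a difference of -7.46% with an edgeR adjusted p of 0.348. The estimate was -0.13 (SE 0.0589; edgeR adjusted p = 0.496) in females and -0.091 (SE 0.0572; adjusted p = 0.998) in males. The averaged estimate was below 0 in all 22 alternative settings and ran from -0.16 without WT male 1 to -0.073 without WT male 2. The male estimate depended on single WT animals, at -0.17 without WT male 1 and -0.0056 without WT male 2.

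Slc6a11 (ENSMUSG00000030307; chromosome 6, 114131241 to 114249952, plus strand) encodes a GABA transporter of astrocytes that clears GABA from around synapses. Its levels were 124, 131, 125 and 108 CPM in the APP/PS1 females against 145 and 135 CPM in the WT females, without overlap. In males they were 129, 115, 140 and 138 CPM in APP/PS1 and 134 in both WT animals, with APP/PS1 values on either side. The female log2 fold change was -0.17 (SE 0.0646), a difference of -11.1% with an edgeR adjusted p of 0.400. The male estimate was -0.0087 (SE 0.0634; edgeR adjusted p = 0.998), and the interaction of -0.16 (SE 0.0913; adjusted p = 0.997) did not pass the test, so a difference between the sexes was not shown. The female estimate was -0.26 (edgeR adjusted p = 0.668) in the 9-library fit and -0.20 (edgeR adjusted p = 0.694) in all 12 libraries without factors, and without WT female 1 it was -0.14 (edgeR adjusted p = 0.953). Astrocyte markers were lower for 3 of 6 genes in females, with a median of -0.017, and for 5 of 6 in the averaged comparison, with 0 called in either; their part in the values of Slc6a11 was not tested.

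Slc32a1 (ENSMUSG00000037771; chromosome 2, 158610767 to 158615748, plus strand), the vesicular transporter, marks the terminals of GABA neurons. It was at 69.0, 84.4, 83.2 and 70.9 CPM in APP/PS1 females and at 83.4 and 85.7 CPM in WT females. In males it was at 81.3, 71.6, 78.5 and 85.2 CPM in APP/PS1 and at 79.9 and 88.6 CPM in WT. In each sex some APP/PS1 animals lay below both WT animals and others among them. The averaged log2 fold change was -0.090 (SE 0.0502), with an edgeR adjusted p of 0.603, and it was -0.053 without APP/PS1 female 1, a choroid plexus-rich library. The plot of single genes shows Gad1, Gad2, Slc32a1, Abat, Slc6a11, Gabrd, Reln and Gabra3 in each animal.

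**Figure D4:**
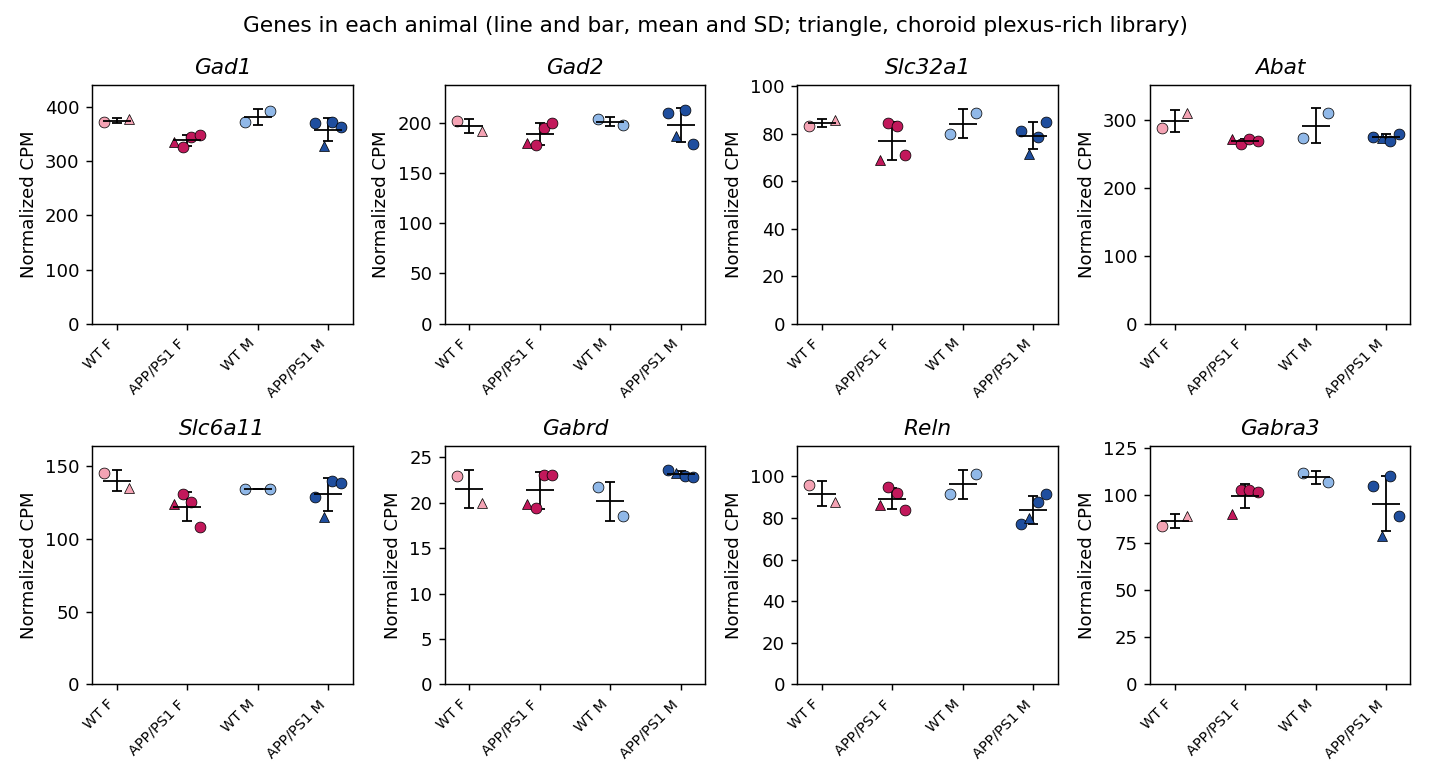
Normalized CPM of 8 GABA synapse genes in each animal, by genotype and sex (F, female; M, male); lines and bars are the mean and SD, and triangles mark libraries rich in choroid plexus transcripts. For Gad1, the 4 APP/PS1 females sit between 326 and 349 CPM, below both WT females at 372 and 378 CPM.

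Gabrd (ENSMUSG00000029054; chromosome 4, 155384980 to 155398112, minus strand) encodes the delta subunit, which dentate granule cells express and which carries tonic inhibition. Its levels were 23.6, 23.3, 23.0 and 22.9 CPM in the APP/PS1 males against 21.7 and 18.6 CPM in the WT males, without overlap. In females they were 19.9, 19.4, 23.1 and 23.1 CPM in APP/PS1 and 23.0 and 20 CPM in WT, with overlap. The male log2 fold change was 0.22 (SE 0.0854), a difference of 16.4% with an edgeR adjusted p of 0.735. It was 0.13 without WT male 2 and 0.32 without WT male 1. The female estimate was -0.071 (SE 0.0871; edgeR adjusted p = 0.852), and its direction was not settled, at 0.0076 without WT female 1 and -0.145 without WT female 2. The interaction was -0.29 (SE 0.123), with an unadjusted edgeR p of 0.0338 and an adjusted p of 0.997, and did not pass the test. It was -0.19 without WT male 2, -0.205 without WT female 1 and -0.21 in all 12 libraries without factors, none of these at an unadjusted p under 0.05. Of the dentate granule cell markers none was called. In females 5 of 5 had lower estimates (median -0.29, 3 at an unadjusted p under 0.05), in males 4 of 5 had higher estimates (median 0.14), in the interaction 5 of 5 were below 0 (median -0.40, 3 at an unadjusted p under 0.05), and in the averaged comparison 4 of 5 were lower. They summed to 273, 278, 296 and 370 CPM in APP/PS1 females, 376 and 333 CPM in WT females, 313, 349, 303 and 304 CPM in APP/PS1 males and 311 and 277 CPM in WT males. Their part in the values of Gabrd was not tested.

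Gabra3 (ENSMUSG00000031343; chromosome X, 72432681 to 72656848, minus strand) encodes an alpha subunit found at synapses. In females it was at 90.1, 103, 103 and 102 CPM in APP/PS1 and at 83.8 and 89.1 CPM in WT, so every APP/PS1 female was higher. In males it was at 105, 78.3, 110 and 89.3 CPM in APP/PS1 and at 112 and 107 CPM in WT, with overlap. Its log2 fold change was 0.15 (SE 0.0968; edgeR adjusted p = 0.694) in females and -0.16 (SE 0.0924; edgeR adjusted p = 0.977) in males. Without APP/PS1 male 2 the male estimate was -0.0896. The interaction of 0.31 (SE 0.135), with an unadjusted edgeR p of 0.0398 and an adjusted p of 0.997, did not pass the test. Without WT female 1 the female estimate was -0.0074 and the interaction 0.15, although WT female 2 too lay below all 4 APP/PS1 females. In the 9-library fit, without WT female 2, the female estimate was 0.29 and the interaction 0.39.

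None of the other receptor genes passed the test. Gabra5, whose transcripts were the most abundant of the alpha subunits per kilobase, had an averaged log2 fold change of -0.071 (SE 0.0391; edgeR adjusted p = 0.597). The ratio of Gabra5 to Gabra2 counts was 1.36 to 1.66 (median 1.47) in the 8 APP/PS1 animals and 1.56, 1.5, 1.48 and 1.45 in the WT animals. The difference in mean log2 ratio was -0.025, with p = 0.598 (exact permutation test, two-sided; adjusted p = 0.598). Leaving out each animal in turn gave -0.050 (APP/PS1 male 2; unadjusted exact permutation p = 0.155) to -0.0052 (WT female 1; unadjusted exact permutation p = 0.909). Averaged estimates of the beta subunits were 0.054 for Gabrb2 (0.0055 without WT male 2 and 0.12 without WT male 1) and -0.013 for Gabrb1. Gabrg3, the gene with the lowest level per kilobase of exon, had an estimate of -0.14 (SE 0.0882, edgeR adjusted p = 0.672), which was -0.057 without WT male 1. APP/PS1 male 2 had the lowest Gabrg3 value, 17.7 CPM, against 25.2 to 30.4 CPM in WT. Gabrg1 was at -0.19 in males, -0.405 without WT male 2 and 0.045 without WT male 1.

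GABA-B subunits Gabbr1 and Gabbr2 had averaged log2 fold changes of -0.053 (SE 0.0411; edgeR adjusted p = 0.735) and -0.11 (SE 0.0591; edgeR adjusted p = 0.584). Gabbr1 ran from 629 to 753 CPM in APP/PS1 and from 698 to 762 CPM in WT, and Gabbr2 from 261 to 325 and from 285 to 341 CPM. For each, the genotypes overlapped. The averaged estimate of Gabbr2 was -0.18 without WT male 1 and -0.049 without WT male 2, and that of Gabbr1 was -0.024 without APP/PS1 female 1. The postsynaptic scaffold gene Gphn was at 72.1 to 82.9 CPM in APP/PS1 and 76.6 to 79.4 CPM in WT (log2 fold change -0.016), and Nlgn2 at 205 to 249 and 223 to 257 CPM (-0.069, with -0.108 without WT male 1 and -0.032 without APP/PS1 female 1). Of these 4 genes none passed the test, and the estimate of Gphn changed sign between settings.

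Reln (ENSMUSG00000042453; chromosome 5, 21884454 to 22344702, minus strand) encodes reelin, which a set of hippocampal interneurons secretes in the adult. It was at 77.0, 79.8, 87.5 and 91.4 CPM in the APP/PS1 males and at 91.3 and 101 CPM in the WT males. In females it was at 86.1, 94.8, 92.2 and 83.9 CPM in APP/PS1 and at 96.0 and 87.5 CPM in WT. Of the 4 APP/PS1 males 3 lay below both WT males, and of the 4 APP/PS1 females 2 lay below both WT females. The male log2 fold change was -0.17 (SE 0.0648), a difference of -11.3% with an edgeR adjusted p of 0.704, and the interaction of 0.16 (SE 0.0939; edgeR adjusted p = 0.997) did not pass the test. The male estimate was -0.11 without WT male 2 and -0.22 without WT male 1.

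Pvalb (ENSMUSG00000005716; chromosome 15, 78191114 to 78206400, minus strand) marks fast-spiking basket cells. It was at 36.2, 29.4, 40.6 and 38.0 CPM in APP/PS1 females and at 28.7 and 35.5 CPM in WT females. In males it was at 48.1, 35.2, 36.7 and 32.2 CPM in APP/PS1 and at 36.6 and 35.6 CPM in WT. APP/PS1 male 1 had the highest value and WT female 1 the lowest. The averaged log2 fold change was 0.086 (SE 0.113), with an edgeR adjusted p of 0.868, the widest error of the 25 genes. Lhx6 and Dlx1, transcription factors of interneuron development that stay on in adults, had averaged estimates of -0.14 (SE 0.0736; edgeR adjusted p = 0.584) and -0.15 (SE 0.0760; edgeR adjusted p = 0.564). That of Lhx6 was -0.21 without WT male 1 and -0.076 without WT male 2, and that of Dlx1 was -0.233 without WT female 1. Erbb4, the neuregulin receptor of interneurons, was at 85.6 to 102 CPM in APP/PS1 and 87.4 to 94.9 CPM in WT, with an estimate of 0.0088 (SE 0.0522; edgeR adjusted p = 0.976). In the 9-library fit the estimate of Dlx1 was -0.039 and that of Pvalb 0.22, and in all 12 libraries without factors they were -0.14 and 0.12, none past the test.

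Of the chloride transporters, Slc12a2 differed with the libraries. Slc12a2 (ENSMUSG00000024597) was at 152 and 152 CPM in the APP/PS1 animals with choroid plexus-rich libraries (female 1 and male 2), at 140 CPM in the WT animal with such a library (female 2), and at 71.2 to 95.1 CPM in the other 9. The choroid plexus is itself known to express this importer; its part in these values, and that of the other lists that set these libraries apart, was not tested. Within the other 9 libraries Slc12a2 was at 95.1, 84.9 and 90.7 CPM in APP/PS1 females, 88.6 CPM in the WT female, 82.9, 79.2 and 82.1 CPM in APP/PS1 males and 94.4 and 71.2 CPM in WT males, so the genotypes overlapped. The averaged log2 fold change was 0.023 (SE 0.0616; edgeR adjusted p = 0.946), in the 9-library fit it was 0.0025 (edgeR adjusted p = 0.998), and in all 12 libraries without factors 0.074 (edgeR adjusted p = 0.974). Leaving out WT male 1 gave 0.14, and leaving out APP/PS1 male 2 gave -0.12.

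Slc12a5 (ENSMUSG00000017740; chromosome 2, 164960802 to 164999731, plus strand), the neuronal exporter, was not higher in those libraries. It was at 447, 516, 533 and 471 CPM in APP/PS1 females and at 543 and 498 CPM in WT females. In males it was at 501, 455, 481 and 543 CPM in APP/PS1 and at 497 and 566 CPM in WT. Its lowest values, 447 and 455 CPM, were in the choroid plexus-rich libraries of APP/PS1 animals, and 4 of the 8 APP/PS1 animals lay below every WT animal. The averaged log2 fold change was -0.070 (SE 0.0440; edgeR adjusted p = 0.656), and it ran from -0.11 without WT male 1 to -0.033 without WT male 2. The plot of both transporters against Ttr shows the separation for Slc12a2.

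**Figure D5:**
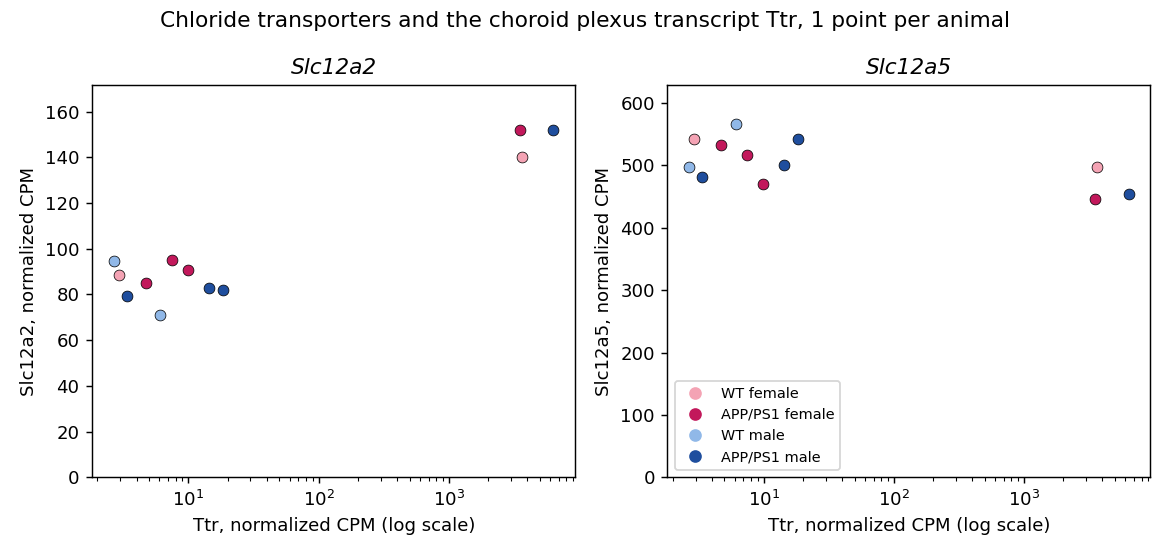
Normalized CPM of Slc12a2 and Slc12a5 against normalized CPM of the choroid plexus gene Ttr (log scale), with a point for each of the 12 animals coloured by group. Slc12a2 is at 140 to 152 CPM in the 3 libraries with Ttr at 3530 CPM or more and at 71.2 to 95.1 CPM in the other 9; the libraries form separate clusters, so no correlation was computed.

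The ratio of exporter to importer counts is often used as an index of chloride handling. It ran from 2.94 to 6.62 in the 8 APP/PS1 animals, with a median of 5.74, and was 6.13, 3.57, 5.26 and 7.96 in the WT animals. The choroid plexus-rich libraries had the lowest ratios, 2.94, 2.99 and 3.57. The difference in mean log2 ratio was -0.14, with p = 0.596 (exact permutation test, two-sided; adjusted p = 0.598). It was -0.10 without the 3 libraries, 0.034 without WT male 2 and 0.012 with medians in place of means, so its direction was not settled.

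Other genes of the pathway were listed by role. Of 46 genes listed for GABA-B auxiliary subunits, the inhibitory postsynapse, precursor supply, interneurons and regulators, 46 were tested and 0 were called by the edgeR quasi-likelihood test in any of the 6 comparisons, with 2 at an unadjusted p under 0.05 in the averaged comparison, against 9.68% of all genes. The other tests called 1 of them, glutamine synthetase (Glul), which astrocytes use to recycle transmitter glutamate and GABA as glutamine: DESeq2 in the averaged comparison (adjusted p = 0.0374) and in males (adjusted p = 0.00971), and edgeR's likelihood ratio test in males (adjusted p = 0.0429). Of the 46, 27 (58.7%) had lower estimates in APP/PS1 in the averaged comparison, with a median of -0.027, against 45.2% of all genes, as did 32 in females and 26 in males. Lower averaged estimates were found for 10 of 12 postsynapse and receptor trafficking genes (10 in females, 6 in males), 4 of 6 precursor and breakdown genes, 9 of 16 other interneuron genes, 3 of 6 regulators and 1 of 6 GABA-B auxiliary subunits and effectors. The 5 with the smallest p were Lhfpl4, which anchors GABA-A receptors at synapses, Glul, the glutamine transporter Slc38a3, the postsynaptic exchange factor gene Iqsec3 and Aldh5a1, which completes GABA breakdown after Abat.

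Lhfpl4 was at 125 to 152 CPM (median 143) in APP/PS1 and at 159, 150, 149 and 161 CPM in WT, with a log2 fold change of -0.13 (edgeR adjusted p = 0.312). Glul was at 947 to 1260 CPM (median 1030) in APP/PS1 and at 1200, 1140, 1300 and 1580 CPM in WT, with a log2 fold change of -0.27 (edgeR adjusted p = 0.328). In males alone the estimate for Glul was -0.48 (SE 0.126; edgeR quasi-likelihood adjusted p = 0.388). Over both sexes the genotypes overlapped for both genes; in males every APP/PS1 value of Glul (952 to 1100 CPM) lay below both WT values, of which WT male 2 had the highest of all 12 animals. Iqsec3 and Aldh5a1 had estimates of -0.12 (edgeR adjusted p = 0.533) and -0.079 (edgeR adjusted p = 0.548). Slc38a3 had an estimate of 0.12 (edgeR adjusted p = 0.533) and, like Slc12a2, was high in the choroid plexus-rich libraries, at 63.1, 70.5 and 68.2 CPM against 30.9 to 45.1 CPM in the other 9.

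Some cell type markers in the same libraries were called in the averaged comparison at an FDR under 0.1. Those named below had edgeR adjusted p-values above 0.05. The microglial and pyramidal cell lists had 0 genes called in females alone and 0 in males alone. Among the microglial markers, of which 2 are reported here, the receptor gene Csf1r rose by a log2 fold change of 0.59 (SE 0.122; edgeR adjusted p = 0.0659) and the purinergic receptor gene P2ry12 by 0.59 (SE 0.132; edgeR adjusted p = 0.0870). Csf1r was at 99.6 to 146 CPM (median 129) in the APP/PS1 animals and at 92.6, 76.6, 73.9 and 94.5 CPM in the WT animals. P2ry12 was at 42.4 to 59.8 CPM (median 47.7) and at 31.8, 28.0, 42.2 and 26.5 CPM, and neither gene overlapped between genotypes. Their part in the GABA gene values was not tested. The pyramidal cell list had 4 of 6 genes with lower estimates (median -0.0701) and 1 called, Lypd1. Lypd1 fell by 0.18 on the log2 scale (SE 0.0467; edgeR adjusted p = 0.0924). It was at 119, 102, 130 and 143 CPM in WT and at 90.8 to 120 CPM (median 111) in APP/PS1, with overlap. Of the excitatory neuron markers 3 of 6 had lower estimates, and of the pan-neuronal markers 1 of 6, with 0 called in the averaged comparison. None of the oligodendrocyte, precursor, endothelial, ependymal, choroid plexus, thalamus or striatum markers was called there either. In females alone, 4 of 6 excitatory neuron markers had lower estimates and 1 was called higher (edgeR adjusted p = 0.0437).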

How the data were processed

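The authors deposited raw counts per gene for 12 directional hippocampal libraries, made by trimming paired-end reads with Trimmomatic, aligning them to GRCm38 with STAR and counting with HTSeq; versions, annotation release, and the strand and multi-mapping options of counting, are not given in the sources used here. Of 55573 identifiers, 55394 matched GENCODE M21, and 21952 had 0 counts in all libraries. The 14008 genes that reached a log2 CPM of 1 in 3 or more samples were kept and scaled by upper quartiles. A model with the 4 groups of genotype and sex and 2 unwanted-variation (RUVg) factors was fitted with edgeR 4.0.16 (limma 3.58.1, R 4.3.3), by robust quasi-likelihood, two-sided. RUVg was written anew, with all genes as controls but the top 5000 of a first pass. Calls were at a Benjamini-Hochberg FDR under 0.1 over all genes tested, in 6 contrasts. Normalized CPM and CPM per kilobase use these scaling factors and merged exon lengths. The 3 count ratios were tested by exact permutation over 495 labelings and adjusted over the 3.

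Alternatives were DESeq2 1.42.0, the likelihood ratio test of edgeR, scaling by TMM, a CPM filter of 1 or none, 0 or 1 RUVg factor, a choroid plexus score as covariate, a replicate block, separate fits of the sexes, an FDR under 0.05, leaving out each animal, leaving out the 3 choroid plexus-rich libraries (without factors), and, for the ratios, medians and permuting within sex. The members and the lists (other pathway genes; markers of excitatory neurons, all neurons, dentate granule cells, pyramidal cells, astrocytes, microglia, oligodendrocytes, their precursors, endothelial and mural cells, choroid plexus, ependyma, thalamus and striatum) were chosen with earlier results of these data known. All members are named; of other pathway genes, those called in any contrast, and otherwise the 5 with the smallest p in the averaged contrast; of marker lists, counts, sums or selected genes called in that contrast. Values of each animal are given for Gad1, Gad2, Slc32a1, Pvalb, Slc12a2, Slc12a5 and members with an unadjusted p under 0.05 in the averaged, female, male or interaction contrast. The model was also run on simulated data, whose outcome is not reported here, so no conclusion rests on it. The 14 pairs of libraries within a group were checked for independence: they differed by 11.6 to 52 times the counting variance per gene. Intervals are at 95% confidence. Depth was 36714316 to 50643565 counts per library, and the spread between animals exceeded counting error. Nothing was left out of the main model.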

Additional observations from a re-analysis of the deposited data

Results flagged for a closer look

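Single animals far from the rest of their group were looked for in 56 groups of 4 animals, and 5 held an animal whose gap to its nearest neighbour took up more of the group's range than the 95% critical value of Dixon's test. Chance gives about 1 in 20 such groups. Slc12a2 in APP/PS1 female 1 was at 152 CPM against 84.9 to 95.1 CPM in the other females of its group (gap over range 0.848). Slc12a2 in APP/PS1 male 2 was at 152 CPM against 79.2 to 82.9 CPM (0.949), and the ratio of Slc12a5 to Slc12a2 in the same animal was 2.99 against 6.04 to 6.62 (0.84). Both libraries are rich in choroid plexus transcripts, and the part of these in the values was not tested. Gabra3 in APP/PS1 female 1 was at 90.1 CPM against 102 to 103 CPM (0.922). The ratio of Gad2 to Gad1 in APP/PS1 male 4 was 0.495 against 0.569 to 0.571 (0.974).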

How the results depend on the processing

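No member was called in any of the 6 contrasts under any setting run: likelihood ratio test, DESeq2, TMM, other filters, fewer factors, choroid plexus score, replicate block, each sex alone, and leaving out animals. An FDR under 0.05 on the main fit could not add calls. The smallest adjusted p of a member in the averaged contrast was 0.104, with DESeq2. Residual correlations between same-numbered females and males of a genotype ran from -0.475 to 0.277. Animals with different numbers were not compared, so whether replicate numbers pair animals was not settled. With the replicate block 220 genes in all were called in the averaged contrast, against 270 without it. Lower averaged estimates were found for 15 to 21 of the 25 members across settings, and other scalings moved the median of all genes by under 0.1.

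Some averaged log2 fold changes changed sign, and the cause was not tested. Without the 3 choroid plexus-rich libraries and without factors, 2 choices changed at once, Gabra2 was at 0.00087, Gabra3 at 0.092, Gabrg1 at 0.061 and Gphn at 0.021. Gabra3 was at 0.0046 in all 12 libraries without factors and at 0.0055 with the choroid plexus score. With the replicate block Gabrb1 was at 0.0012 and Gphn at 0.016. Without a filter Slc12a2 was at -0.037 and Erbb4 at -0.00684, and Erbb4 was at -0.0039 with DESeq2 and -0.000751 with TMM, which moved the median of all genes from 0.010 to 0.00055. Leaving out each animal in turn gave -0.080 to 0.067 for Gabra3, -0.036 to 0.095 for Gabra4, -0.033 to 0.0079 for Gabrb1, -0.15 to 0.074 for Gabrg1, -0.036 to 0.0069 for Gphn, -0.12 to 0.14 for Slc12a2, -0.0060 to 0.18 for Pvalb and -0.016 to 0.036 for Erbb4. The other 16 members kept their sign in the 22 alternatives.

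For the ratio of Slc12a5 to Slc12a2, medians gave 0.012, and leaving out an animal gave -0.35 (WT female 2) to 0.034 (WT male 2). For Gad2 to Gad1, medians gave 0.11 (exact permutation p = 0.0485), and leaving out an animal gave 0.054 (WT male 2) to 0.097 (APP/PS1 male 4; exact permutation p = 0.0152); over its alternatives the exact permutation p ran up to 0.369. Without a WT animal its sex has 1 WT animal left, which is assumed to vary like the others. With 2 WT animals of each sex, the female, male and interaction estimates rest on few controls. The counts of genes called by other settings were, in the averaged contrast, 398 (likelihood ratio test), 400 (DESeq2), 173 (no factor) and 66 (no factor and without the 3 libraries).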
